A study of Mus musculus with 2 samples.

Results

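The mRNAs of 2 families of splicing regulators, the heterogeneous nuclear ribonucleoproteins (hnRNPs) and the serine- and arginine-rich (SR) proteins, were followed between polysomes and the lighter part of a sucrose gradient in mouse cells under endoplasmic reticulum (ER) stress. Members were the coding accessions on the array, which start with NM, whose array name began with Hnrnp or Hnrp, or with Sfrs or Srsf and a number. This gave 45 of 18743 coding accessions, 22 named as hnRNPs and 23 named as SR proteins, which carry 39 gene symbols and were read by 74 probes. Sfrs is the older symbol of the SR proteins, and several genes that once bore it are now named otherwise, so this group is called SR-named below. It holds the classical SR proteins, which now have Srsf symbols, beside genes such as Pnisr, Srek1 and Sugp2 that were renamed.

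The cells were NIH3T3, an established mouse fibroblast line, grown on 4 plates in 10% serum. Control cells were not stressed, and stressed cells received 10 µM thapsigargin, which blocks calcium uptake into the ER, for 3 h. Whether control cells received a vehicle is not stated. Per the methods, cells were given cycloheximide shortly before lysis to hold the polysomes in place. Lysates were spun through gradients of 10 to 40% sucrose, and each condition was read on 1 array with polysome-bound RNA (P) in Cy3 and free plus monosomal RNA (FM) in Cy5, 300 ng of RNA in total from 3 pooled preparations. Log2 P/FM, the signal of the P channel over that of the FM channel on a log2 scale, measured polysome association, and A, the average of both log2 signals, served as a measure of how much RNA a probe caught. With 1 array a condition there was no replicate check and no test was made. The nearest measure of error was the spread between probes of one mRNA, whose median SD over 3438 mRNAs was 0.29 for log2 P/FM in control cells, 0.28 with thapsigargin and 0.32 for the change between them, and it does not cover the spread between preparations. An NIH3T3 culture is a single line at a single time, and it stands for no tissue.

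hnRNPs and SR proteins bind nascent transcripts and help to decide which exons are kept. SR proteins carry RNA recognition motifs and a domain rich in arginine and serine, and as a rule they favour inclusion of the exons they bind, while hnRNPs often act against it. Many members of both families shuttle between nucleus and cytoplasm, where they take part in export, stability and translation of mRNA. Several of their genes limit their own product by splicing in an exon with an early stop codon, so that one gene can give several transcripts. In ER stress the kinase PERK phosphorylates the initiation factor eIF2, which lowers initiation on most mRNAs and moves them from polysomes to lighter fractions.

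Over the whole arrays, 42.5% of P spots and 46.3% of FM spots were well above background in control cells, against 44.6% and 45.4% with thapsigargin. An mRNA was used when A exceeded 4.5 on both arrays, and 153 negative control spots had A of at most 4.13 and 4.35. This left 10033 coding mRNAs, whose median log2 P/FM was 0.34 in control cells and -0.29 with thapsigargin and whose median change was -0.71. Of 9 fibroblast marker accessions 9 passed the filter, among them Vim, the intermediate filament protein vimentin, with A of 14.39 and 14.98. Of the marker accessions of other cells, 0 of 5 for epithelium, 1 of 7 for neurons (Tubb3) and 1 of 6 for blood cells (Cd3e) passed. All 22 hnRNP accessions and 21 of the 23 SR-named accessions passed, 43 in all. The 2 that did not were Srsf12, which was not well above background in any channel, and Akap17b, with A of 4.14 in control cells.

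The change in polysome association was lower for the hnRNP mRNAs than for the SR-named mRNAs. The hnRNP median log2 P/FM was 0.73 in control cells and 0.14 with thapsigargin, and the median change was -1.04, although it was 0.02 after loess normalization and 1.51 after scaling to spike-in probes. For the SR-named mRNAs the levels were 0.10 and -0.00 and the median change was -0.24, a direction that turned with 6 of the other ways of processing. The families thus stood apart in control cells by 0.64 in median log2 P/FM and with thapsigargin by 0.15. Log2 P/FM was at or above 0 in control cells for 16 of 22 hnRNP and 12 of 21 SR-named mRNAs, against 63.5% of all mRNAs, and with thapsigargin for 12 and 10, against 37.4%. It was lower with thapsigargin than in control cells for 16 of the hnRNP and 12 of the SR-named mRNAs, against 70.7% of all mRNAs. The difference between the median changes of the families was -0.80, hnRNP minus SR-named. Within each family the changes spread widely, with the middle 50% of hnRNP accessions between -1.53 and 0.01 and of SR-named accessions between -0.48 and 0.55. The difference lay between -1.06 and -0.28 under 17 alternative ways of processing, below 0 in 17 of them. Not all of the 17 could alter it. Centring and spike-in scaling add the same constant to every change, and 0 of the outlier spots belonged to members. Since the values came from whole cultures, fewer cells with an mRNA on polysomes and fewer polysomal copies in each cell cannot be told apart.

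Scaling sets the zero of every change, and so the direction for a single mRNA, while the order of the mRNAs on a pair of arrays does not move when a constant is added. The zero was that of the unnormalized signals. Centring each array on its median brought the median change of all mRNAs to -0.08, and scaling to 10 spike-in probes brought it to 1.84. On the last scale each of the 43 members had a higher log2 P/FM with thapsigargin, the lowest change being 0.45 for Hnrnpa0. Whether equal amounts of spike-in RNA went into both dyes is not given in the sources used here. Per the methods, P held more RNA than FM in control cells and FM more than P under stress. Labelling kept these proportions, so with thapsigargin the RNA input was lower in P and higher in FM. The share of spike-in RNA in each channel could shift with it. The spike-in probes themselves changed by a median of -2.44 in log2 P/FM, and how much of this came from the input was not tested. Values on the spike-in scale are given as a limit on reading directions, and which scale gives the true directions was not tested. Relative to the median of all mRNAs, the hnRNP median lay at -0.33 and the SR-named median at 0.48. The hnRNP value turned to 0.17 with loess, 0.10 with the processed signals of the scanner software, 0.08 with its log ratio and 0.10 when only mRNAs with A above 7 were kept, and the SR-named value turned to -0.06 with the normexp background.

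**Figure D1:**
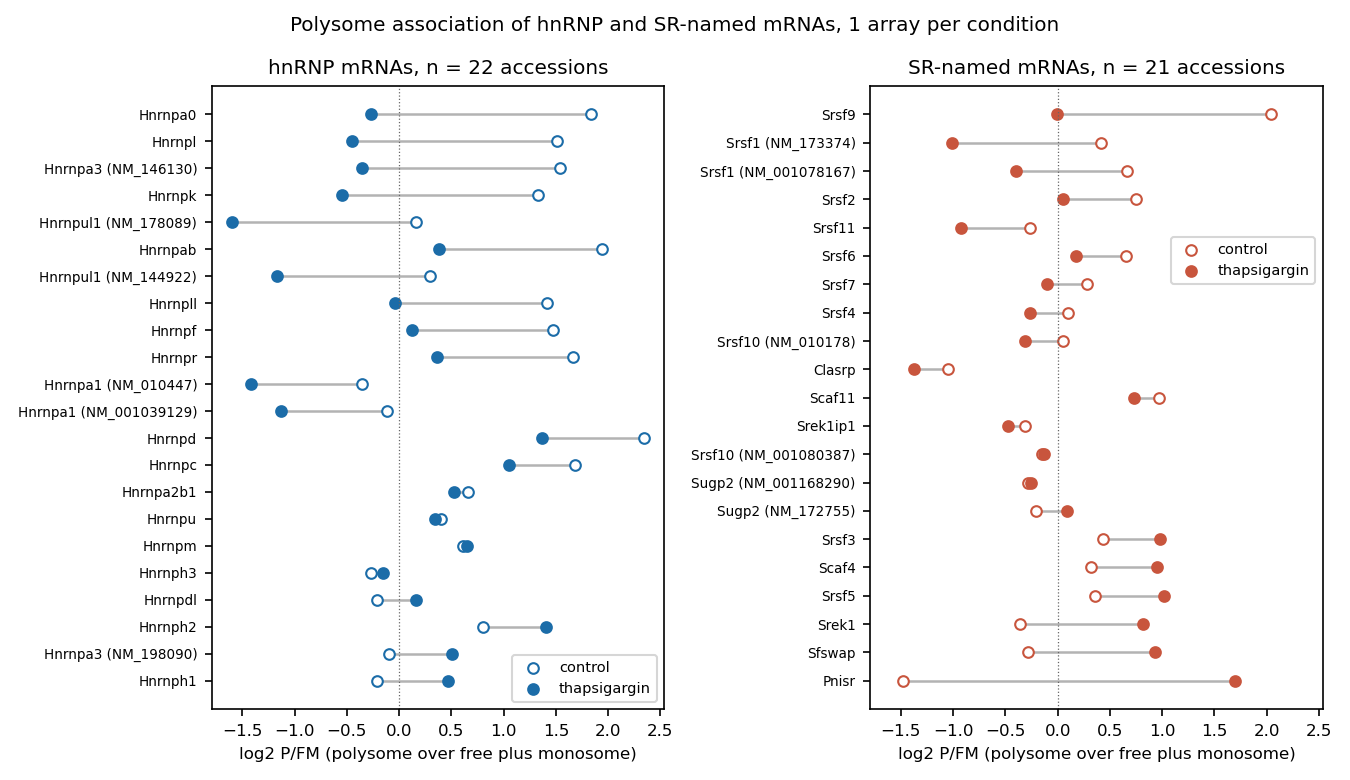
Log2 P/FM in control cells (open circles) and with thapsigargin (filled circles) for the 22 hnRNP accessions (left) and the 21 SR-named accessions (right) above the signal filter, 1 array per condition, without normalization. Each line joins the values of 1 accession, and the families are sorted by change, from -2.10 (Hnrnpa0) to 0.68 (Hnrnph1) and from -2.05 (Srsf9) to 3.18 (Pnisr). After scaling to spike-in probes, whose input to each dye is not given, all 43 changes were above 0.

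The study divides mRNAs by their response, and the same limits were used here. Sensitive mRNAs had a change of -0.8 or lower, resistant mRNAs kept log2 P/FM at 0.8 or higher in control cells and also with thapsigargin, and inducible ones started from 0 or less in control cells and gained at least 1 with thapsigargin. Of all coding mRNAs 47.0% were sensitive, 3.00% resistant and 8.86% inducible. Among the hnRNP mRNAs 13 of 22 were sensitive, 3 resistant and 0 inducible. With 1 value per gene symbol 10 of 19 hnRNPs were sensitive, against 47.5% of all. By the mean A of both arrays, 2 of 2 hnRNP mRNAs were sensitive at 4.5 to 7 (30.6% of all mRNAs) and 4 of 6 at 7 to 9 (45.5%). At 9 to 11 it was 3 of 8 (65.2%), and above 11 it was 4 of 6 (81.1%). Hnrnpd met the limits for sensitive and for resistant at once, and the other resistant hnRNPs were Hnrnpc and Hnrnph2. Hnrnph2, read by 1 probe, was at 0.81 in control cells, close to the limit. The hnRNP resistant count was 2 with the normexp background, without background subtraction and with median spot signals. Among the SR-named mRNAs 3 of 21 were sensitive, namely Srsf9 and both accessions of Srsf1, 0 were resistant and 3 were inducible, namely Pnisr, Sfswap and Srek1. The sensitive count of the hnRNPs ranged under other processing from 0 with spike-in scaling to 13, apart from 22 of 35 when probes were counted singly. The sensitive share of all mRNAs moved as well, from 0.64% with spike-in scaling to 59.9% when only A above 7 was kept. Of the 16 sensitive accessions, Hnrnpa0, Hnrnpl and Srsf9 stayed at -0.8 or lower under every alternative that keeps accessions as the unit but spike-in scaling, whereas with loess Hnrnpk was at -0.56, Hnrnpa3 (NM_146130) at -0.29 and Hnrnpf at -0.13.

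In each fraction by itself the families differed in P and less in FM. The P signal was lower with thapsigargin for 15 of 22 hnRNP mRNAs and for 5 of 21 SR-named mRNAs, against 49.3% of all mRNAs. The FM signal was higher for 19 of 22 and 17 of 21, against 86.6% of all mRNAs. The median change in P signal was -0.30 for hnRNPs and 0.23 for SR-named mRNAs on the log2 scale, and 0.02 for all mRNAs. In FM the medians were 0.80, 0.68 and 0.72. Each array received the same total of RNA. Per the methods, P held more RNA than FM in control cells and FM more than P under stress. Labelling kept these proportions, so with thapsigargin the input was lower in P and higher in FM. These changes in signal include that of the input, and the parts were not separated.

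**Figure D2:**
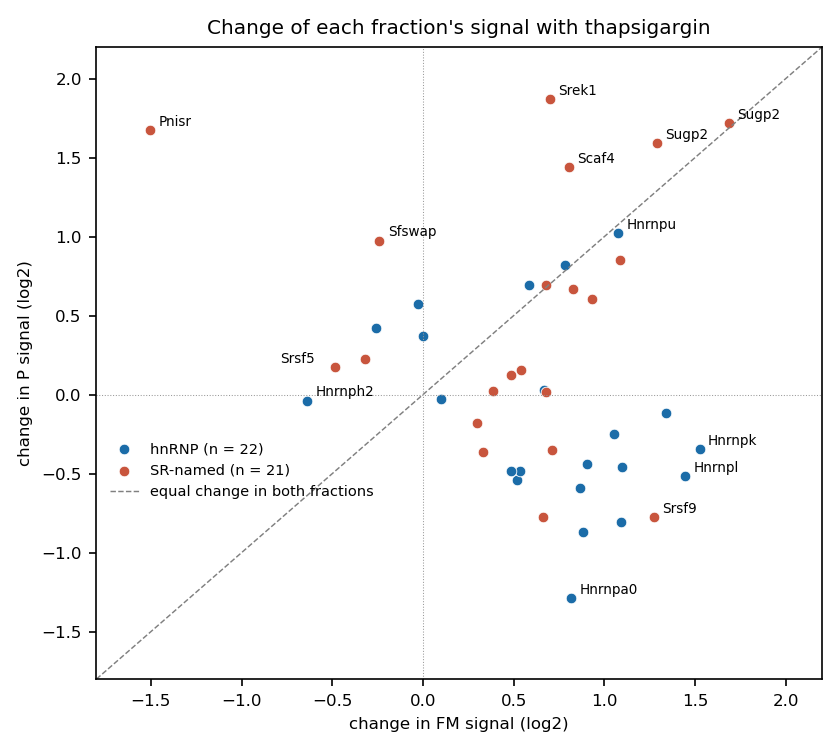
Change in P signal against change in FM signal with thapsigargin, both on the log2 scale, for 22 hnRNP (blue) and 21 SR-named (red) accessions, without normalization. Points below the dashed line had a lower log2 P/FM with thapsigargin. Hnrnpa0 had the lowest change in P (-1.29) and Srek1 the highest (1.87), while Pnisr was higher in P and lower in FM. Scaling to spike-in probes, whose input to each dye is not given, would move all 43 points above the line.

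The A and B type hnRNPs, with the related AB, D and DL proteins, package nascent RNA and include the best-known antagonists of SR proteins. The changes of their 9 accessions, from 7 genes, spanned -2.10 to 0.60 with a median of -1.02. The lowest was Hnrnpa0, an RNA-binding protein known to bind AU-rich elements. Its P signal was 2516 in control cells and 1032 with thapsigargin, while its FM signal was 705 and 1242. The mRNA was thus on polysomes in control cells (log2 P/FM 1.84) and not in excess there under stress (-0.27), a change of -2.10 ± 0.19 (SD over 2 probes), and the probes gave -1.97 and -2.23. Scaled to spike-in probes the change was 0.45.

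Hnrnpa0 also had a start with the letters of a terminal oligopyrimidine tract, which is known from mRNAs of ribosomal proteins. In RefSeq (GRCm38.p6) such a start, a C followed by at least 4 bases that are each C or T, on the sense strand only, was found at 2 of 52 annotated starts of the members (3.85%) and at 823 of 32851 starts of all genes (2.51%). The other was a start of Srsf5, whose log2 P/FM changed the other way. The 2 windows, 10 bases before and 20 from the start on, are shown because the members changed in opposite directions, with the pyrimidine run in capitals, for Hnrnpa0 at chr13:58128537-58128566, minus strand, and for Srsf5 at chr12:80945489-80945518, plus strand. Of the 39 symbols 37 had an entry among the starts.
Hnrnpa0 start: cttcagcggcCTCTTTgtgtggtgtcccga
Srsf5 start: caggacgtccCTTCCattttgtgcaacgtc

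Hnrnpa3, a close relative of Hnrnpa1 and Hnrnpa2b1, was represented by 2 accessions that moved apart. For NM_146130 the P signal was 9393 in control cells and 5370 with thapsigargin, and the FM signal was 3223 and 6862, a change in log2 P/FM of -1.90 ± 0.44 (SD over 3 probes, -2.26 to -1.41). For NM_198090, read by 1 probe, the P signal was 242 and 360 and the FM signal 259 and 254, a change of 0.60. The gap of 2.50 between them was more than the SD between probes. In the genome 3532 and 207 bases lay between the neighbouring probes of NM_146130, and the probe of NM_198090 lay 3210 bases beyond the last of them. The probes below show where each accession was read, that of NM_146130 at chr2:75503607-75503666, plus strand, and that of NM_198090 at chr2:75507144-75507203, plus strand, in the positions that the array files give on mm9 (NCBI build 37). All probes were 60 bases long and are printed without capitals, since no base is singled out. Exons and untranslated regions at the probes were not analysed here.
Hnrnpa3 NM_146130: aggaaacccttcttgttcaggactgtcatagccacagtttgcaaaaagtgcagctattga
Hnrnpa3 NM_198090: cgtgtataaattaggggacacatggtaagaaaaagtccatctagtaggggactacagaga

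Hnrnpa1, a well-known repressor of exon inclusion, had a log2 P/FM below 0 with thapsigargin on all 3 of its probes in the unnormalized ratios. Its accession NM_001039129 had P signals of 852 and 610 and FM signals of 922 and 1339, with log2 P/FM of -0.12 and -1.14. In control cells the probes gave -0.49 and 0.26. The change was -1.02 ± 0.82 (SD over 2 probes), from -0.44 and -1.60, and it was -0.067 with loess. The third probe, of accession NM_010447, gave -1.06. Hnrnpa2b1, known for sorting RNAs into exosomes, had P signals of 2048 and 2007 and FM signals of 1298 and 1391. Its change was -0.13, within the spread between probes, but 1.15 with the processed signals, and higher with loess as well.

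Hnrnpab, a regulator of transcription and of mRNA transport, had P signals of 18996 and 13837 and FM signals of 4957 and 10602. Its log2 P/FM was 1.94 in control cells and 0.38 with thapsigargin, a change of -1.55 ± 0.40 (SD over 3 probes), and loess turned it to 0.25. Hnrnpd, also called AUF1, binds AU-rich elements and directs decay of mRNAs. Its P signals were 5608 and 4010 and its FM signals 1109 and 1550. Its log2 P/FM of 2.34 was the highest of the 43 members in control cells, where 3.30% of all mRNAs were at 2 or above, and with thapsigargin it was 1.37. The change of -0.97 turned to 0.39 with loess and to 0.42 with the processed signals. Hnrnpdl, its paralogue, gave 0.37, and its 3 probes ranged from -0.20 to 0.70.

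The F and H proteins bind runs of G, and in this subfamily Hnrnph1 and Hnrnph2 had a higher log2 P/FM with thapsigargin, where 70.7% of all mRNAs had a lower one. Hnrnph1 had P signals of 1704 and 2288 and FM signals of 1978 and 1654, a change of 0.68 from -0.21 to 0.47. Hnrnph2, its X-linked paralogue, had P signals of 1972 and 1921 and FM signals of 1128 and 724. Its log2 P/FM was thus 0.81 and 1.41, a change of 0.60 with a nearly even P signal, and its A was lower by 0.34, the lowest change in A of all 43. Hnrnph3 gave 0.11, within the spread between probes, and -0.011 with median spot signals. Hnrnpf moved the other way, with P signals of 2729 and 2013 and FM signals of 985 and 1845, a change of -1.35 ± 0.56 (SD over 2 probes). The probes of Hnrnph1 and Hnrnph2 are shown, each the sole probe of its gene, for Hnrnph1 at chr11:50199601-50199660, plus strand, and for Hnrnph2 at chrX:131141447-131141506, plus strand.
Hnrnph1: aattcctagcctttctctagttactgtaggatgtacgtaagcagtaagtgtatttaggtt
Hnrnph2: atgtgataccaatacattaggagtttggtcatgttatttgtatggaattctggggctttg

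Hnrnpl, which binds CA repeats, and its paralogue Hnrnpll, a regulator of Ptprc splicing in lymphocytes, lay together. The P signal of Hnrnpl was 531 in control cells and 372 with thapsigargin, and its FM signal was 187 and 508. Its log2 P/FM was 1.51 and -0.45, and the change of -1.96 was the second lowest of the hnRNPs. Hnrnpll had P signals of 544 and 501 and FM signals of 204 and 516, a change of -1.46 ± 0.28 (SD over 2 probes). In both the P signal differed less than the FM signal, which was 2.73-fold higher for Hnrnpl.

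Hnrnpk, a poly(C)-binding protein that also acts in translation, had P signals of 3320 and 2615 and FM signals of 1326 and 3818. The FM signal was 2.88-fold higher with thapsigargin, and log2 P/FM was 1.32 and -0.55, a change of -1.87 ± 0.08 (SD over 2 probes). Another transcript named Hnrnpk, outside the members, gave -0.74. Hnrnpr gave a change of -1.30, or -0.56 with loess. Hnrnpc, a core protein of nuclear hnRNP particles, had P signals of 743 and 757 and FM signals of 231 and 366. It kept log2 P/FM of 1.68 and 1.05, and the change of -0.64 ± 0.58 (SD over 2 probes) turned to 0.11 with loess. Hnrnpm had P signals of 3316 and 5868 and FM signals of 2166 and 3734, so both fractions were higher together and log2 P/FM changed by 0.04, or by 1.58 with loess and 1.57 with the processed signals.

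Hnrnpu, or scaffold attachment factor A, ties RNA to chromatin. Its P signal was 1801 in control cells and 3652 with thapsigargin, and its FM signal 1368 and 2887. Both signals were thus about equally higher, 2.03-fold in P and 2.11-fold in FM, and log2 P/FM changed by -0.06 ± 0.34 (SD over 2 probes), or by 1.31 with loess and 1.27 with the processed signals. Its A was higher by 1.05, the only hnRNP change in A of 1 or more, a limit that 11.7% of all mRNAs reached upwards and 0.698% downwards. Hnrnpul1, a relative with a role in DNA repair, behaved otherwise: its 2 accessions gave -1.76 and -1.46 with changes in A of 0.01 and 0.14. With the normexp background these changes were -0.25 and -0.26, which ended both sensitive calls. Over the family the median change in A was 0.21, against 0.37 for all mRNAs, and it was -0.19 with the processed signals and -0.12 with the normexp background.

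For the 12 accessions that now have Srsf symbols the median level was 0.39 in control cells and -0.12 with thapsigargin (log2 P/FM), and the median change was -0.43. At the low end stood Srsf9, an SR protein with a short RS domain. Its P signal was 1536 in control cells and 898 with thapsigargin, and its FM signal was 372 and 900. Its log2 P/FM thus went from 2.04, the highest in the family, to -0.00, a change of -2.05 read by 1 probe at chr5:115782747-115782806, plus strand. Scaled to spike-in probes the change was 0.50. The probe is printed because no second probe of the gene was on the array.
Srsf9: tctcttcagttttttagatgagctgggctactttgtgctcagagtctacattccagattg

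Srsf1, the founding SR protein and a shuttling factor that also promotes translation, was lower by both its accessions. NM_001078167 had P signals of 1604 and 1260 and FM signals of 1015 and 1665, a change of -1.06. NM_173374, on a dimmer probe, had P signals of 104 and 60.6 and FM signals of 77.5 and 122, a change of -1.43, or -0.30 with the normexp background. The brighter accession turned to 0.10 with loess and to 0.01 with the processed signals of the scanner software.

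Srsf2, a mainly nuclear SR protein, had P signals of 1435 and 1114 and FM signals of 854 and 1073, a change of -0.69 ± 0.47 (SD over 3 probes), close to the median of all mRNAs. Srsf4 (-0.36), Srsf6 (-0.48) and Srsf7 (-0.38) lay between that median and 0. In them FM differed more than P, as in Srsf7, the adaptor for export of mRNA through NXF1, with P signals of 958 and 1066 and FM signals of 787 and 1144. Its 3 probes ranged from -0.69 to 0.10. For Srsf4 the P signals were 259 and 263 and the FM signals 242 and 316, and for Srsf6 they were 442 and 390 and 281 and 346. Srsf11 gave -0.66. The changes of Srsf2, Srsf4, Srsf6, Srsf7 and Srsf11 were above 0 with loess and with the processed signals, that of Srsf7 at 0.61 and 0.57.

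Srsf3 and Srsf5, by contrast, had a higher log2 P/FM with thapsigargin. Srsf3, a small SR protein that acts in export and in its own splicing, had P signals of 99.4 and 116 and FM signals of 73.6 and 59.0, a change of 0.55 from 0.43 to 0.98. Srsf5 had P signals of 1870 and 2112 and FM signals of 1463 and 1044, a change of 0.66 from 0.35 to 1.02. Each was read by 1 probe. Their P signals were little higher and their FM signals lower, and their A changed by -0.05 and -0.16. The change of Srsf5 was higher than that of 85.1% of all mRNAs.

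Srsf10, a splicing repressor that is dephosphorylated in heat shock, gave the widest disagreement between probes. Accession NM_010178 averaged -0.36 ± 2.28 (SD over 2 probes), which came from -1.97 and 1.25. The brighter probe had P signals of 798 and 445 and FM signals of 359 and 785. The other had P signals of 16.1 and 34.2 and FM signals of 33.4 and 29.9, and its P signal in control cells was not well above background. A probe of NM_001080387 gave 0.02. The probes are shown in the order of the plus strand of chromosome 4, at chr4:135420986-135421045, plus strand; chr4:135423060-135423119, plus strand; and chr4:135425311-135425370, plus strand, with 2014 and 2191 bases between neighbours.
Srsf10 NM_001080387, change 0.02: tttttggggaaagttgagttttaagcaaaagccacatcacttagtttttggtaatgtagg
Srsf10 NM_010178, change -1.97: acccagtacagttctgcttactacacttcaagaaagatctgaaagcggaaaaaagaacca
Srsf10 NM_010178, change 1.25: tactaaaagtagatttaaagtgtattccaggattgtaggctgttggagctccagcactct

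The 9 SR-named accessions that now carry other symbols had a higher median change than the classical SR proteins, with 3 of the 9 lower with thapsigargin against 9 of the 12 Srsf accessions in the unnormalized ratios, and 70.7% of all mRNAs. Their median log2 P/FM was -0.28 in control cells and 0.73 with thapsigargin, and their median change was 0.30. The P signal was lower with thapsigargin in 0 of the 9 and A was higher in 9 of 9, where 76.8% of all mRNAs had a higher A. Their median change in A was 0.97, against 0.19 for the Srsf accessions. All 3 inducible members belonged here, and leaving these genes out moved the SR-named median change from -0.24 to -0.43. The inducible counts also depended on the scale: with loess 7 hnRNP and 6 SR-named mRNAs were inducible. The share of all mRNAs inducible with loess is not given here, so these counts cannot be set against it.

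Pnisr, a nuclear protein rich in serine and arginine that interacts with pinin, had the highest change of the 43 members. Its P signal was 22.0 in control cells and 70.3 with thapsigargin, and its FM signal was 61.2 and 21.6. Both its probes were well above background in both channels on the control array and in P with thapsigargin, but not in FM with thapsigargin. With the background subtracted as here, the measured FM signal was 2.83-fold lower and the P signal 3.19-fold higher. Log2 P/FM changed by 3.18 from -1.48, above the change of 99.9% of all mRNAs. The size depended on the background, since the change was 1.36 with the normexp background and 1.57 without subtraction. The probes lay 2310 bases apart and gave 3.18 each, at chr4:21800769-21800828, plus strand and at chr4:21803139-21803198, plus strand, and they are printed because the signals were dim and the highest change rests on them.
Pnisr probe A_52_P80548: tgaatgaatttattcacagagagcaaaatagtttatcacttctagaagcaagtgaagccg
Pnisr probe A_51_P277588: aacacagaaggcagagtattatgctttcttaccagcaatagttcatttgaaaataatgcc

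Sfswap, the mouse homologue of the suppressor-of-white-apricot splicing factor of flies, had P signals of 348 and 684 and FM signals of 423 and 358. Its log2 P/FM was -0.28 and 0.93, a change of 1.22 ± 0.50 (SD over 3 probes, 0.91 to 1.79). Srek1, a splicing regulator rich in glutamic acid and lysine, had P signals of 89.9 and 329 and FM signals of 115 and 187. Both fractions were higher, P 3.66-fold and FM 1.63-fold, and log2 P/FM changed by 1.17 ± 0.07 (SD over 3 probes). Of all coding mRNAs 9.90% were higher by 1 or more and 40.8% lower by 1 or more, and in the 43 members the counts were 3 and 15.

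Sugp2, a protein with SURP and G-patch domains, had the largest changes in A. Accession NM_001168290 had P signals of 93.2 and 307 and FM signals of 114 and 366, and its A was higher by 1.70. Accession NM_172755 had P signals of 44.7 and 135 and FM signals of 51.7 and 126, and its A was higher by 1.44. Both fractions were higher together, so log2 P/FM changed by only 0.03 and 0.30. Srek1 (1.29), Scaf4 (1.12) and Hnrnpu (1.05) also had A higher by 1 or more, which made 5 of 43 members.

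Scaf4, which binds the tail of RNA polymerase II and prevents early termination, had P signals of 299 and 812 and FM signals of 240 and 420, a change in log2 P/FM of 0.64. Scaf11, another SR-related protein, gave -0.24 with A higher by 0.97. Srek1ip1, a partner of Srek1, gave -0.16. Clasrp, named for its association with the kinase Clk4, was the lowest of these genes at -0.33, with P signals of 1856 and 2818 and FM signals of 3839 and 7327. Its change turned to 1.21 with loess and 1.19 with the processed signals.

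The change depended on the signal level in all mRNAs, and the families differed in level. The median change of all mRNAs was -0.24 for a mean A of 4.5 to 7, -0.67 for 7 to 9, -1.26 for 9 to 11 and -1.76 above 11. The median A in control cells was 10.17 for the hnRNPs and 7.97 for the SR-named accessions. In the same intervals the hnRNP medians were -1.61 (2 accessions), -1.18 (6), -0.01 (8) and -1.26 (6), and those of the SR-named were 0.16 (6), -0.06 (8), -0.68 (6) and -0.33 (1). At a mean A of 7 to 9 the hnRNPs lay below all mRNAs and the SR-named above them, whereas from 9 to 11 both families lay above and the hnRNPs were the higher of the pair. The part of the signal level in the difference between the families was not tested.

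**Figure D3:**
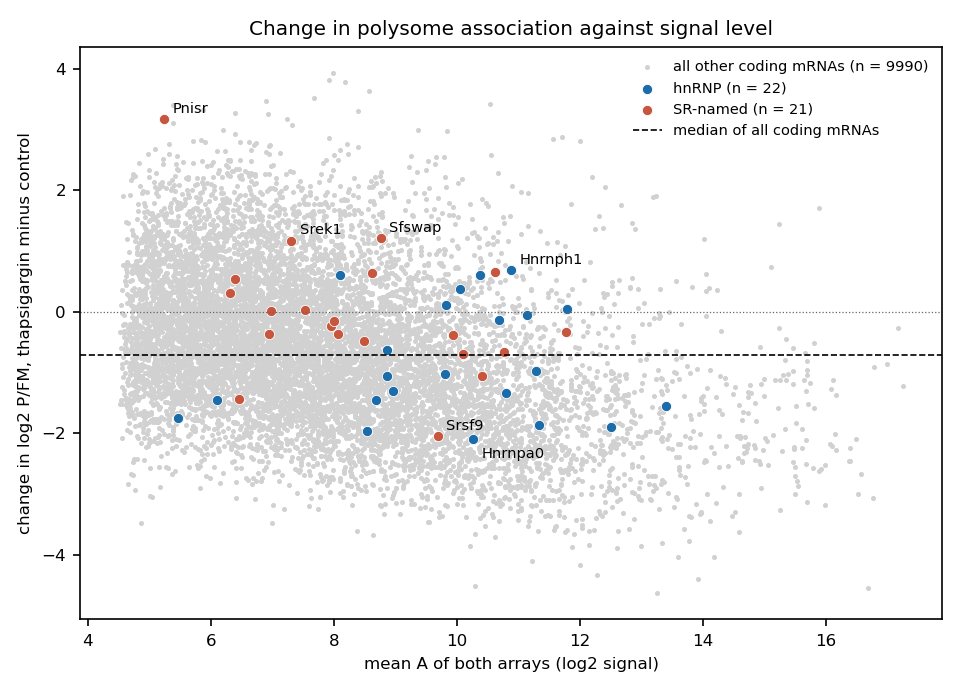
Change in log2 P/FM, thapsigargin minus control, against the mean A of both arrays (log2 signal) for 22 hnRNP (blue), 21 SR-named (red) and all other coding mRNAs (grey), without normalization, with the median of all mRNAs (-0.71) as a dashed line. Grey points shift downwards as A increases, and members of both families lie on either side of the line. After scaling to spike-in probes, whose input to each dye is not given, the members' changes were all above 0.

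Probes of one accession agreed in sign for 17 of the 21 member accessions with at least 2 probes above the filter. The exceptions were Srsf10 (NM_010178), Hnrnpdl, Hnrnpu and Srsf7, and in the last 3 the probe that differed lay within 0.20 of 0. A gap of more than 1 between probes occurred in Srsf10 and Hnrnpa1. The median SD of the change over probes of a member was 0.34, near that of all mRNAs. Where a gene had 2 accessions they differed by 0.04 in Hnrnpa1, 0.27 in Sugp2, 0.30 in Hnrnpul1, 0.37 in Srsf1 and 0.38 in Srsf10, beside the 2.50 of Hnrnpa3.

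**Figure D4:**
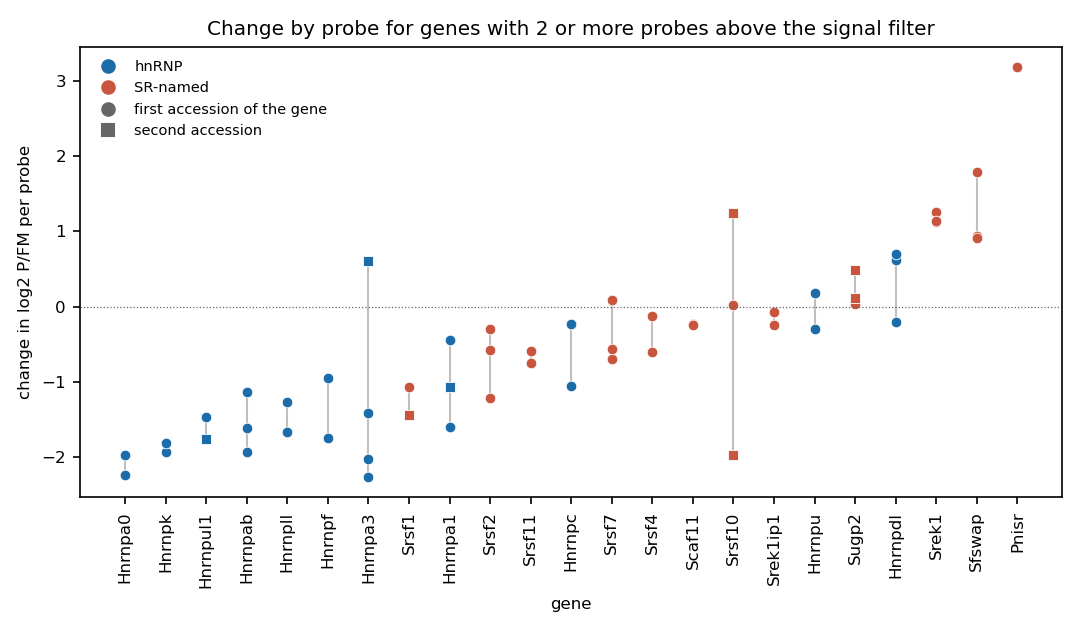
Change in log2 P/FM of each probe for genes with 2 or more probes above the signal filter, without normalization, hnRNP in blue and SR-named in red, with circles and squares for the first and second accession of a gene. Lines join the lowest and highest probe of a gene. The widest ranges were those of Srsf10 (-1.97 to 1.25) and Hnrnpa3 (-2.26 to 0.60), and both Pnisr probes lay at 3.18, while spike-in scaling moves all probes up by the same amount.

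Other splicing factors were listed beside the members. The 26 accessions of hnRNP proteins with other names, such as the poly(C)-binding and RALY proteins, had a median change of -0.78, with 13 sensitive (47.0% of all mRNAs were), 0 resistant and 3 inducible (8.86%). Their lowest were Raly (-3.08) and Pcbp2 (-2.43) and their highest Tardbp NM_145556 (1.77) and Sfpq (1.29), and the inducible ones included an entry of Syncrip (1.23). Another entry of Syncrip gave 0.36 and another of Tardbp -0.43, and neither was inducible. The 18 accessions of other proteins with RS domains had a median change of 0.20, with 5 sensitive, 1 resistant (Snrnp70, which was also sensitive) and 4 inducible. They ran from the splice site recognition factors U2af1 (-2.68) and U2af2 (-1.44) to the 2 accessions of Son, a large RS protein of nuclear speckles (1.77 and 3.00).

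The kinases that phosphorylate SR proteins and the importer that carries them to the nucleus had 9 accessions above the filter. Of these 0 were sensitive and 1 was inducible, against 47.0% and 8.86% of all mRNAs, and their median change was 0.23. Clk1, which phosphorylates RS domains in the nucleus, was the highest at 2.44, from -1.60 to 0.84, ahead of Clk4 at 0.94. The lowest were Clk3 (-0.68) and the importer Tnpo3 (-0.56). Of 11 accessions of other regulators 0 were sensitive and 3 inducible, with a median of 0.35. Mbnl2 (1.77) and Tia1 (1.27) were highest and Celf1 (-0.54) and Celf2 (-0.53) lowest, while another entry of Celf2 gave 0.51. Among dim mRNAs fewer were sensitive, with 30.6% of all at a mean A of 4.5 to 7 and 45.5% at 7 to 9. Regulators known from single tissues such as neurons, muscle and epithelium passed the filter in 1 of 10 accessions (Elavl2).

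**Figure D5:**
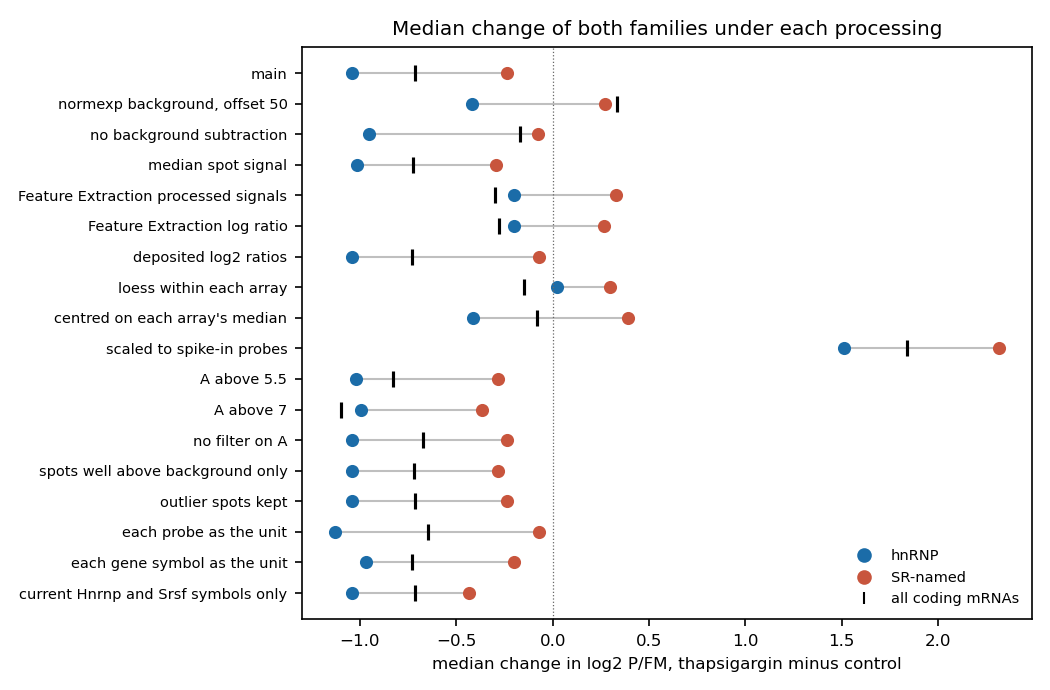
Median change in log2 P/FM, thapsigargin minus control, of the hnRNP (blue), SR-named (red) and all coding mRNAs (black bar) under the reported processing (top, labelled main) and 17 alternatives. The hnRNP median lay left of the SR-named median under all 18, but centring, spike-in scaling and keeping outlier spots could not alter their distance. It was above 0 with loess (0.02) and spike-in scaling (1.51), while the SR-named median was above 0 with 6 of the alternatives.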

How the data were processed

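Both arrays were 2-colour Agilent mouse arrays, 1 for control and 1 for thapsigargin, with polysome-bound RNA (P) in the Cy3 channel and free plus monosomal RNA (FM) in the Cy5 channel. Per the file headers, intensity values of spots and of their local background came from Feature Extraction (10.7.1 per the submitters' processing notes) without normalization. In the deposited files are also processed intensity values and a log10 ratio of both dyes after the software's dye normalization. The authors further deposited log2 ratios of P to FM without normalization, in a table of 11483 accessions that held 37 of the members, and of its coding values 99.99% for control and 100% for thapsigargin lay within 0.001 of the mean over spots computed here. Scores of 0 or 1 in the deposited files flag spots as well above background, saturated or outliers.

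The median of the local background was taken from the mean signal of a spot, with a floor of 0.5 as the study's background method sets it. Log2 P/FM and A were computed per spot, 295 outlier spots (0 of them of members) were left out, and spots were averaged to probes and probes to accessions. mRNAs with A above 4.5 on both arrays were compared. No spot was saturated. Current symbols came from RefSeq (GRCm38.p6), by accession for 44 of the 45 members and by an older symbol for 1. With 1 array per group no test was possible, and values are described against the spread between probes. Having 2 arrays sets the limit on precision.

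Named in full were the best-known hnRNP and SR genes, the 5 largest changes in either direction, the 3 largest changes in A in either direction, members of the resistant and inducible classes and members whose probes or accessions differed, and from other lists the 2 highest and 2 lowest changes. Inducible or resistant genes of those lists that are named beside them were chosen after their values were seen. Members, lists and limits were chosen with earlier results of these data known. The steps were tested on simulated data. Python 3.11.15, R 4.3.3 and limma 3.58.1 were used. The 17 alternatives varied the background (normexp with offset 50, none), the spot statistic, the signal source, the normalization (loess, centring, spike-in probes), the filter on A (5.5, 7, none), the spots kept and the unit. Protein sequences were not analysed here.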

Additional observations from a re-analysis of the deposited data

How the results depend on the processing

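With 1 array per condition, every value lacks a replicate check, differences of labelling or preparation between the arrays cannot be told apart from the treatment, and probes near background (Pnisr, Srsf10, Hnrnpul1) limit what can be read. The scale sets the direction of single changes. Why a value moved between settings was not tested. No paired analysis was possible because each group had 1 array, so the groups share a single replicate number. Of 247 family values under 17 alternatives, 186 moved by less than the spread or stayed within 1.5 times the count, 55 moved further and 6 reversed. With the normexp background, the hnRNP median change was -0.42, the hnRNP median change in A -0.12, the hnRNP sensitive count 8, the SR-named control median -0.33, the SR-named median change 0.27 and the SR-named median change in A -0.24. With the processed signals, the hnRNP thapsigargin median was 0.58, the hnRNP median change -0.20, the hnRNP median change in A -0.19, the hnRNP sensitive count 6, the hnRNP inducible count 7, the SR-named thapsigargin median 0.33, the SR-named median change 0.33, the SR-named median change in A -0.042, the SR-named resistant count 2 and the SR-named inducible count 6. With the software's log ratio, the hnRNP thapsigargin median was 0.58, the hnRNP median change -0.20, the hnRNP sensitive count 6, the hnRNP inducible count 7, the SR-named thapsigargin median 0.31, the SR-named median change 0.27, the SR-named resistant count 1, the SR-named inducible count 6 and the difference between the families -0.47. With loess within each array, the hnRNP control median was 0.36, the hnRNP thapsigargin median 0.55, the hnRNP median change 0.020, the hnRNP sensitive count 5, the hnRNP inducible count 7, the SR-named control median -0.24, the SR-named thapsigargin median 0.30, the SR-named median change 0.30, the SR-named inducible count 6 and the difference between the families -0.28. With each array centred on its median, the hnRNP control median was 0.39, the hnRNP thapsigargin median 0.43, the hnRNP median change -0.41, the hnRNP sensitive count 8, the hnRNP inducible count 3, the SR-named control median -0.24, the SR-named thapsigargin median 0.29 and the SR-named median change 0.39. With scaling to spike-in probes, the hnRNP control median was 1.13, the hnRNP thapsigargin median 3.10, the hnRNP median change 1.51, the hnRNP sensitive count 0, the hnRNP resistant count 13, the SR-named control median 0.50, the SR-named thapsigargin median 2.95, the SR-named median change 2.31, the SR-named sensitive count 0 and the SR-named resistant count 7. With A above 7, the hnRNP control median was 1.07 and the SR-named inducible count 1. With each probe as the unit, the hnRNP control median was 1.09, the hnRNP sensitive count 22, the SR-named sensitive count 5, the SR-named resistant count 1 and the SR-named inducible count 8. With current symbols only, the SR-named inducible count was 0. The sensitive share of all mRNAs was 13.4% with the normexp background, 33.3% with the processed signals and 32.6% with the log ratio. It was 27.0% with loess, 27.3% with centring, 0.64% with spike-in scaling and 45.2% of probes with each probe as the unit. The resistant and inducible shares of all mRNAs under the alternatives are not given here, so those counts cannot be set against them. Of 582 values of single members, 380 moved by less than the spread, 151 moved further and 51, all of them changes larger than the spread, reversed. The reversed changes in log2 P/FM were as follows. With the normexp background, the change of Hnrnpc was 0.013. With the processed signals and likewise with the software's log ratio, the changes were Srsf1 NM_001078167 0.013, Srsf2 0.39, Srsf11 0.65, Srsf6 0.030, Srsf4 0.049, Clasrp 1.19, Hnrnpd 0.42 and Hnrnpc 0.0029. With loess within each array, the changes were Srsf1 NM_001078167 0.096, Srsf2 0.38, Srsf11 0.59, Srsf6 0.14, Srsf4 0.19, Clasrp 1.21, Hnrnpab 0.25, Hnrnpd 0.39 and Hnrnpc 0.11. With each array centred on its median, the changes were Srsf6 0.15, Srsf4 0.26 and Clasrp 0.30. With scaling to spike-in probes, the changes were Srsf9 0.50, Srsf1 NM_173374 1.12, Srsf1 NM_001078167 1.49, Srsf2 1.86, Srsf11 1.89, Srsf6 2.07, Srsf4 2.19, Clasrp 2.22, Hnrnpa0 0.45, Hnrnpl 0.59, Hnrnpa3 NM_146130 0.65, Hnrnpk 0.68, Hnrnpul1 NM_178089 0.79, Hnrnpab 1.00, Hnrnpul1 NM_144922 1.09, Hnrnpll 1.09, Hnrnpf 1.21, Hnrnpr 1.25, Hnrnpa1 NM_010447 1.49, Hnrnpa1 NM_001039129 1.53, Hnrnpd 1.58 and Hnrnpc 1.91.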

Other observations

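The array also carried 19 transcripts with hnRNP or SR names whose accessions do not start with NM and which stand outside the 45 members. Of these, 12 passed the filter on A, 5 of them sensitive, 0 resistant and 3 inducible, where of all coding mRNAs 47.0% were sensitive, 3.00% resistant and 8.86% inducible, with a median change in log2 P/FM of -0.55. The transcript AF073993 of Hnrnpa2b1 had P signals of 3642 in control cells and 2930 with thapsigargin and FM signals of 871 and 1949, a change of -1.48, where the coding accession of the same gene gave -0.13. ENSMUST00000043765 of Hnrnpul1 gave -1.99, beside -1.76 and -1.46 for its coding accessions. AK004831, named Sfrs6, gave -1.13 where the coding accession gave -0.48. A transcript named Hnrnpk had P signals of 3272 and 2736 and FM signals of 1898 and 2657. Its change was -0.74, where the coding accession gave -1.87. A transcript named Hnrnpa1 gave 0.50, beside -1.02 and -1.06 for the coding accessions. One named Sfrs13a, the older name of Srsf10, gave 2.85, beside -0.36 and 0.02. BC057314, named Sfrs8, the older name of Sfswap, had P signals of 58.3 and 66.8 and FM signals of 101 and 33.3, a change of 1.79, beside 1.22 for the coding accession. These transcripts were chosen after their values were seen, and for each of them scaling to spike-in probes raises the change by the same amount as for the members.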
